A study of Mus musculus with 6 samples.

Results

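The genes examined here are 10 genes grouped as targets and feedback genes of the Wnt/β-catenin pathway, taken by name from a table of 56748 annotated genes. They were followed one by one through 6 RNA-Seq libraries of endothelial cells (ECs) sorted from mouse spinal cord at P16. Of the 10 genes, 8 were grouped as endothelial Wnt targets and feedback genes (*Apcdd1*, *Axin2*, *Nkd1*, *Notum*, *Znrf3*, *Lef1*, *Tcf7* and *Tcf7l2*). *Tcf7l2* is in this group as the gene of a nuclear partner of β-catenin. The other 2 are general growth targets that many other signals also regulate (*Myc* and *Ccnd1*). Each gene name occurred in 1 row of the table, and all 10 genes were among the 13107 that passed the filter on low counts. The study asked what loss of TDP-43, an RNA-binding protein, from ECs does to blood vessels of the central nervous system (CNS). The 3 control mice carried *Tardbpflox*, a *Tardbp* allele whose exon 3 lies between *loxP* sites, and no Cre. The 3 *TDP-43iΔEC* mice carried *Cdh5(PAC)-CreERT2;Tardbpflox*, so a tamoxifen-dependent Cre was made in cells that use the *Cdh5* promoter, which is active in ECs of all organs. Both groups were on a C57BL/6 background and received a tamoxifen solution of 1 mg/mL from P5 to P7. The study states that it used both sexes in its groups, and the sex behind each library was not used here. Each numbered library was taken as 1 mouse, so P values measure the spread between libraries.

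Wnt ligands bind Frizzled receptors with the coreceptors LRP5 and LRP6 and stop a destruction complex from degrading β-catenin, which then enters the nucleus and activates genes together with TCF/LEF factors. Several of the activated genes encode inhibitors that act back on the ligand, the receptor, Dishevelled or the destruction complex, and their mRNA levels are widely used as readouts of the pathway. In CNS vessels, this pathway drives vessel growth into the neural tissue and the formation of the blood-CNS barrier.

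TCF/LEF factors recognize short AT-rich sites. The proximal promoters of the 10 genes were searched on both strands for 4 such heptamers, CTTTGAA, its variant CTTTGAT, then CTTTGTA and lastly CTTTGTT. They differ only in their final 2 letters, and matches on the same strand cannot overlap. The window ran from 250 bases before to 50 bases after the start of the canonical transcript in GRCm39. A heptamer was found in 4 of the 10 genes, and in 16.4% of 21757 protein-coding promoters of the same length (3566 promoters). In *Axin2*, *Nkd1* and *Notum* it lay upstream of the canonical start, at 22, 26 and 53 bases before it, and in *Ccnd1* it lay 14 bases after it. The annotated *Axin2* and *Nkd1* genes begin before their canonical transcripts, so these 2 heptamers lie within the annotated gene. The upstream matches are shown here because they belong to feedback inhibitors whose RNA is described further on, with the heptamer in capitals, 5′ to 3′ on the strand of the gene (plus for *Axin2* and *Nkd1*, minus for *Notum*). They lie at chr11:108811605-108811633, chr8:89247888-89247916 and chr11:120552055-120552083.
Axin2: tcggctcgcgcCTTTGAAgtgcacagtta
Nkd1: gtccgcctcgcCTTTGATgggccgctgcc
Notum: gtccgccgccgCTTTGATcccgggggccc
A match describes these letters only, and no binding was measured. The other 6 genes, *Apcdd1* among them, did not hold these letters in this window.

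The libraries summed to 44041329 to 47270654 counts in control mice and to 25704871 to 45010088 in *TDP-43iΔEC* mice, and 3 counts correspond to 0.0635 to 0.117 CPM (counts scaled to the total of the library). Normalized counts are counts divided by the size factor of the library, given in the order of mice 1, 2 and 3, and adjusted P values take in every tested gene (Benjamini-Hochberg). *Tardbp*, at 1973, 2282 and 2069 normalized counts in the controls, had 982, 599.9 and 433 in *TDP-43iΔEC* mice 1, 2 and 3, the direction given by the labels, although its adjusted P value in limma was 0.287. The 9 endothelial markers summed to 10012 to 13874 CPM in control and 9941 to 12710 CPM in *TDP-43iΔEC* libraries, and *Cldn5* was the highest of them. Lower sums were found for mural cell markers (507 to 893 CPM and 430 to 1079 CPM, highest *Rgs5*), fibroblast markers (35.4 to 40.8 and 12.8 to 43.9, highest *Col1a2*), microglia and macrophage markers (0 to 3.77 and 0.244 to 8.21, with *Adgre1* at 0 in all libraries) and T cell markers (0 to 0.704 and 0 to 0.567, with *Cd3d*, *Cd3g*, *Cd4* and *Cd8a* at 0). The groups did not overlap in the sums of astrocyte markers (211 to 249 and 139 to 193 CPM, highest *Gja1*), neuron markers (4.995 to 11.1 and 1.945 to 3.54 CPM, highest *Map2*) and red cell genes (6336 to 9759 and 2197 to 2909 CPM, highest *Hba-a2*), all lower in *TDP-43iΔEC* libraries. In a multidimensional scaling, control mouse 2 stood apart on the first dimension and *TDP-43iΔEC* mouse 1 on the second, and values without either mouse are given where they change a result most. Control mouse 2 had the fewest detected genes, 12972.

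Of the 10 genes, *Apcdd1* was lower and *Myc* and *Ccnd1* were higher in every *TDP-43iΔEC* mouse than in every control mouse, and the groups overlapped for the other 7. None of the 10 genes passed the threshold of an adjusted P value under 0.05 in limma, against 0.137% of all tested genes (18 genes, 4 higher and 14 lower). The study, which also names limma with voom and this threshold, reported more genes from these samples, with *Apcdd1* among the lower ones. It does not describe a filter on low counts. An unadjusted P value under 0.05 was found for 2 of the 10 (*Apcdd1* and *Ccnd1*), against 9.27% of all tested genes in limma. Groups without overlap, lower in *TDP-43iΔEC* mice, were found for 1 of the 10 genes against 7.1% of all tested genes, and higher for 2 of the 10 against 7.93%. Of the 8 endothelial genes, 6 had a negative log2 fold change, and the median of the 8 was -0.51, or -0.50 without *Apcdd1*. Over all tested genes, 50.7% had a negative log2 fold change and the median was -0.02. The median of the 8 genes ranged from -0.79 without *TDP-43iΔEC* mouse 1 to -0.27 with libraries scaled to 5 endothelial genes. That scaling moved the median of all tested genes to 0.23. Relative to all tested genes, the median of the 8 was thus -0.499 with that scaling and -0.497 in the fit reported here. By edgeR's quasi-likelihood test, 0 of the 10 genes passed the adjusted threshold and 2 had an unadjusted P value under 0.05, and DESeq2's Wald test called *Apcdd1* alone among them, where it called 1.88% of all tested genes (247 genes).

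**Figure D1:**
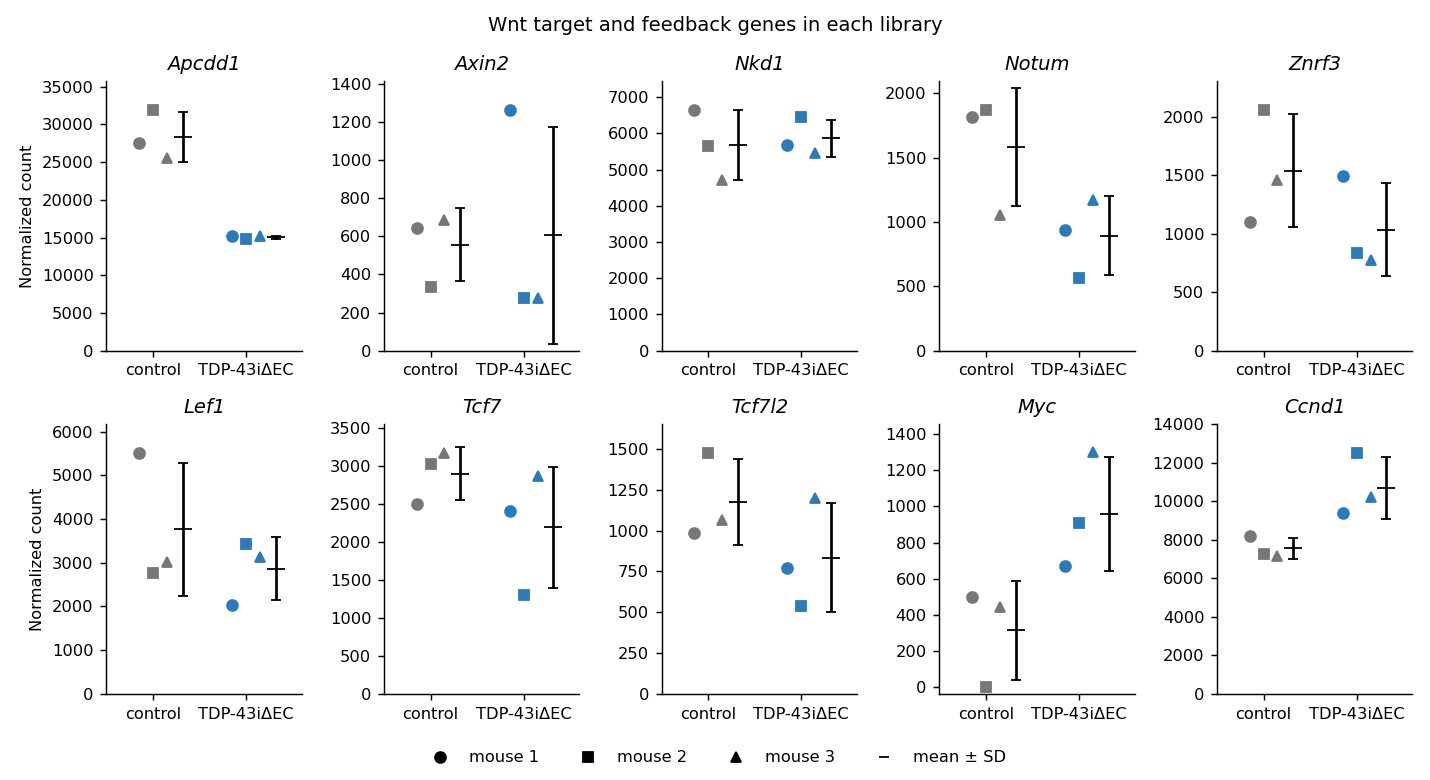
Normalized counts (y axis, each panel from 0 with its own range) of the 10 genes in the 3 control (gray) and 3 TDP-43iΔEC libraries (blue), with symbols for mice 1, 2 and 3 and bars for mean ± SD. Apcdd1 sits at 14801 to 15177 in the TDP-43iΔEC libraries and at 25512 to 31927 in the controls, Myc and Ccnd1 are separated in the other direction, and the other 7 panels overlap.

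*Apcdd1* (identifier ENSMUSG00000071847.14, chr18:63055302-63094250, plus strand, canonical transcript of 5 exons) encodes a membrane-bound glycoprotein that binds Wnt ligands and LRP5 and inhibits the pathway at the cell surface. Its deposited counts were 33074, 35867 and 31437 in control mice 1, 2 and 3, against 20016, 12411 and 10695 in *TDP-43iΔEC* mice 1, 2 and 3. After scaling for library size, it had 27514, 31927 and 25512 normalized counts in the controls, against 15177, 14801 and 15177 in *TDP-43iΔEC* mice. All 3 *TDP-43iΔEC* mice thus lay at nearly the same level, below the lowest control, with a coefficient of variation of 1.44% against 11.6% in controls. The mean of 28317 ± 3282 in controls compares with 15052 ± 217 in *TDP-43iΔEC* mice (SD, n = 3 each), which is 46.8% lower. The log2 fold change was -0.94 (standard error [SE] 0.14, 95% interval -1.26 to -0.63, adjusted P = 0.0523 in limma), a fold of 0.521 with an interval of 0.419 to 0.648. In bulk RNA, fewer cells of a type and less of a transcript per cell cannot be told apart, and this holds for every gene below.

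The call on *Apcdd1* depended on which genes were tested with it, while its direction did not. It ranked 22nd by P value among all tested genes. With no filter on low counts its adjusted P value in limma was 0.0141, where 0.356% of 21324 genes passed, and with at least 10 counts required in every library it was 0.0455, where 0.434% of 8982 genes passed. In DESeq2 it was 5.2e-07 and in edgeR 0.185. Scaled to 5 endothelial genes (*Pecam1*, *Cldn5*, *Kdr*, *Flt1* and *Vwf*), the setting with the smallest change, the log2 fold change was -0.70 (limma adjusted P = 0.367). With each mouse left out in turn it lay between -1.01 and -0.88, with limma adjusted P values from 0.0682 without control mouse 3 to 0.417 without *TDP-43iΔEC* mouse 1. No exon of another annotated gene overlaps *Apcdd1*. The lower sums of astrocyte, neuron and red cell markers moved with the groups in the same direction as *Apcdd1*, and their part in this result was not tested.

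The other feedback inhibitors did not share this separation. *Axin2* (ENSMUSG00000000142.16, chr11:108811169-108841609, plus strand) encodes a scaffold of the destruction complex and is the pathway's classic feedback target. It had 646, 336 and 686 normalized counts in the controls, against 1262, 278 and 275 in *TDP-43iΔEC* mice. *TDP-43iΔEC* mouse 1 held the highest level of the 6 and the other 2 *TDP-43iΔEC* mice the lowest. The means were 556 ± 191 and 605 ± 569, and the log2 fold change was 0.11 (SE 0.73, 95% interval -1.55 to 1.76, adjusted P = 0.976 in limma), an interval that spans a fold of 0.342 to 3.40. Without *TDP-43iΔEC* mouse 1 the log2 fold change was -0.99, and it was also negative without control mouse 2 (-0.33), with sample quality weights (-0.46) and with at least 10 counts in every library (-0.03). *Axin2* therefore has no settled direction in these libraries.

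*Nkd1* (ENSMUSG00000031661.13, chr8:89247890-89324577, plus strand) encodes an inhibitor that binds Dishevelled. It had 6644, 5653 and 4705 normalized counts in the controls, against 5684, 6437 and 5449 in *TDP-43iΔEC* mice, so all 3 *TDP-43iΔEC* values fell within the control range. With means of 5668 ± 970 and 5857 ± 516, its log2 fold change was 0.02 (SE 0.21, 95% interval -0.45 to 0.49, adjusted P = 0.985 in limma). The interval covers folds of 0.732 to 1.41 and does not include the fold estimated for *Apcdd1*. The sign of this small value was negative with the replicate number as a block and without control mouse 3 or *TDP-43iΔEC* mouse 2.

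*Notum* (ENSMUSG00000042988.11, chr11:120541446-120552019, minus strand) encodes a secreted enzyme that removes the lipid from Wnt proteins and so inactivates them. It had 1818, 1871 and 1056 normalized counts in the controls, against 936, 568 and 1175 in *TDP-43iΔEC* mice. Control mouse 3 and *TDP-43iΔEC* mouse 3 crossed, and the other 2 *TDP-43iΔEC* mice lay below every control. The means were 1582 ± 456 and 893 ± 306, or 43.5% lower, close to the difference of *Apcdd1* but with a far larger spread, and the log2 fold change was -0.88 (SE 0.43, 95% interval -1.85 to 0.10, adjusted P = 0.560 in limma). Its value lay between -1.14 and -0.63 with each mouse left out. Genes of the other strand share 48.7% of the exonic sequence of *Notum*, most of it with *Notumos* (38.3%). The counting did not use strand, and the 86, 375 and 127 counts given to *Notumos* in control mice and 145, 6 and 2 in *TDP-43iΔEC* mice may be shared with *Notum*, so both genes are uncertain.

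*Znrf3* (ENSMUSG00000041961.15, chr11:5226324-5394939, minus strand) encodes a transmembrane ubiquitin ligase that clears Frizzled receptors from the cell surface. It had 1100, 2056 and 1457 normalized counts in the controls, against 1490, 835 and 773 in *TDP-43iΔEC* mice. As for *Axin2*, *TDP-43iΔEC* mouse 1 lay within or above the controls and the other 2 below all of them. The means were 1538 ± 483 and 1033 ± 397, and the log2 fold change was -0.52 (SE 0.42, 95% interval -1.47 to 0.43, adjusted P = 0.691 in limma), with a range from -0.92 without *TDP-43iΔEC* mouse 1 to -0.33 without control mouse 2, and -0.27 when scaled to 5 endothelial genes. The 6 oligodendrocyte lineage markers reported here, led by *Mbp*, showed a similar split, with sums of 99.4, 243 and 164 CPM in the controls, against 261, 26.0 and 0.856 CPM in *TDP-43iΔEC* mice. All 6 were detected in some library, and *Mog* and *Mag* had 0 counts in *TDP-43iΔEC* mice 2 and 3. *Olig1* and *Olig2* did not share the split and were at 0 in *TDP-43iΔEC* mouse 1. *Olig1* had 152, 277 and 178 normalized counts in the controls, against 0, 5.96 and 0 in *TDP-43iΔEC* mice. *Olig2* had 8.32, 247 and 37.3, against 0, 0 and 29.8. Their part in the levels of *Axin2* and *Znrf3* was not tested.

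The TCF/LEF factors are both partners of β-catenin in the nucleus and, for *Lef1* and *Tcf7*, targets of the pathway. *Lef1* (ENSMUSG00000027985.15, chr3:130903919-131018005, plus strand) had 5506, 2760 and 3019 normalized counts in the controls, against 2043, 3431 and 3126 in *TDP-43iΔEC* mice. Control mouse 1 stood highest and *TDP-43iΔEC* mouse 1 lowest, and the other 4 mice overlapped. The means were 3762 ± 1516 and 2867 ± 729, and the log2 fold change of -0.45 (SE 0.35, 95% interval -1.26 to 0.35, adjusted P = 0.684 in limma) moved to -0.14 without control mouse 1 and to -0.17 without *TDP-43iΔEC* mouse 1. The antisense gene *Lef1os1* covers 16.3% of its exonic sequence.

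*Tcf7* (ENSMUSG00000000782.17, chr11:52143107-52174619, minus strand), which encodes TCF-1, had 2501, 3032 and 3171 normalized counts in the controls, against 2405, 1306 and 2867 in *TDP-43iΔEC* mice. *TDP-43iΔEC* mice 1 and 2 lay below every control and mouse 3 above the lowest control. The means were 2901 ± 354 and 2193 ± 802, and the log2 fold change was -0.50 (SE 0.32, 95% interval -1.24 to 0.23, adjusted P = 0.630 in limma), or -0.21 without *TDP-43iΔEC* mouse 2. *Tcf7l2* (ENSMUSG00000024985.21, chr19:55730188-55922091, plus strand), which encodes TCF-4, had 983, 1474 and 1067 normalized counts in the controls, against 769, 537 and 1198 in *TDP-43iΔEC* mice. Its mice fell in the same pattern as for *Tcf7*, with *TDP-43iΔEC* mice 1 and 2 below every control. The means were 1175 ± 263 and 834 ± 335, and the log2 fold change was -0.62 (SE 0.42, 95% interval -1.57 to 0.33, adjusted P = 0.642 in limma), between -0.81 and -0.40 with each mouse left out. *TDP-43iΔEC* mouse 2, the lowest for *Notum*, *Tcf7* and *Tcf7l2*, was the highest of its group for *Lef1*.

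The makeup of this group of factors was compared between the genotypes per kilobase of the canonical transcript. The summed level of the 3 factors was 2595 ± 454 normalized counts per kb in control mice and 1958 ± 343 in *TDP-43iΔEC* mice (2-sided exact permutation test, P = 0.2, smallest possible 0.1). *Lef1* made up 55.5% ± 12.1 of this sum in control mice and 57.6% ± 13.3 in *TDP-43iΔEC* mice (exact permutation P = 0.6), *Tcf7* 33.2% ± 8.77 and 32.2% ± 10.8, and *Tcf7l2* 11.3% ± 3.91 and 10.2% ± 2.80. These shares differed by less than the spread between mice. Which factor leads depends on the length used. Divided by the union of all annotated exons instead, *Tcf7* led with 58.8% in control mice and *Lef1* followed with 30.9%, and isoforms were not resolved by the gene counts.

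The 2 growth targets lay on the other side. *Ccnd1* (ENSMUSG00000070348.6, chr7:144483668-144493662, minus strand) encodes cyclin D1, which drives entry into the cell cycle. It had 8202, 7283 and 7189 normalized counts in the controls, against 9391, 12510 and 10249 in *TDP-43iΔEC* mice. Every *TDP-43iΔEC* mouse lay above every control. The means were 7558 ± 559 and 10716 ± 1611, a ratio of 1.42, and the log2 fold change was 0.44 (SE 0.18, 95% interval 0.03 to 0.85, adjusted P = 0.513 in limma), with a range of 0.33 to 0.55 when single mice were left out and 0.69 when scaled to 5 endothelial genes. *LTO1*, a gene of the other strand, covers 48.4% of the exonic sequence of *Ccnd1*. It had 1429, 2604 and 1214 counts in the controls, against 1505, 1051 and 12 in *TDP-43iΔEC* mice, against 7222 to 12385 counts of *Ccnd1* in any library, and without strand the reads of the overlap cannot be told apart.

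*Myc* (ENSMUSG00000022346.18, chr15:61857227-61862223, plus strand), a transcription factor of growth and ribosome biogenesis, had 600, 0 and 546 counts in the controls, against 886, 760 and 916 in *TDP-43iΔEC* mice. These correspond to 499, 0 and 443 normalized counts in the controls, against 672, 906 and 1300 in *TDP-43iΔEC* mice (1299.9 before rounding). The groups did not overlap, and control mouse 2, the library with the fewest detected genes, held no read of *Myc*, which allows a level of up to 0.0662 CPM for counting error only. The means were 314 ± 273 and 959 ± 317, and the log2 fold change of 4.14 (SE 2.07, 95% interval -0.55 to 8.84, adjusted P = 0.564 in limma) rested on that library. Without control mouse 2 it was 0.83.

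**Figure D2:**
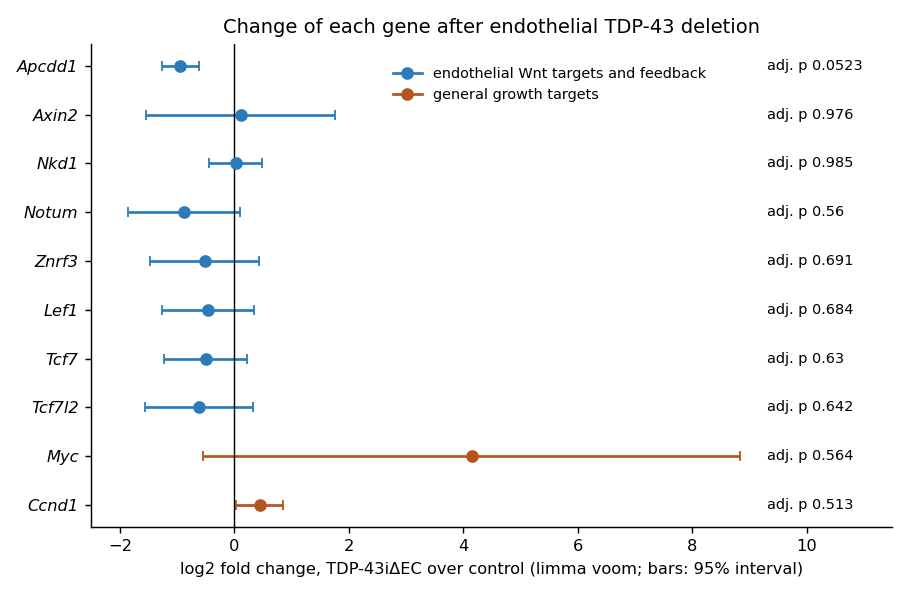
log2 fold change of each gene (x axis, TDP-43iΔEC over control, limma voom) with its 95% interval and adjusted P value, for the 8 endothelial genes (blue) and the 2 growth targets (orange). The intervals of Apcdd1 (-1.26 to -0.63) and Ccnd1 (0.03 to 0.85) do not include 0, and that of Myc is the widest, from -0.55 to 8.84.

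The direction of 8 of the 10 genes was the same in every alternative in which they were tested, and that of *Axin2* and *Nkd1* was not. In the plot of log2 fold changes by setting, the columns of *Apcdd1*, *Notum*, *Znrf3*, *Lef1*, *Tcf7* and *Tcf7l2* hold negative values throughout and those of *Myc* and *Ccnd1* positive ones. Apart from leaving out mice, the log2 fold changes ranged from -0.95 to -0.70 for *Apcdd1*, from -0.91 to -0.67 for *Notum* and from 0.41 to 0.69 for *Ccnd1*. Scaling by library size only moved the median of all tested genes to 0.18 and scaling to 5 endothelial genes moved it to 0.23, and the genes moved with it. Without control mouse 2 that median was -0.17.

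**Figure D3:**
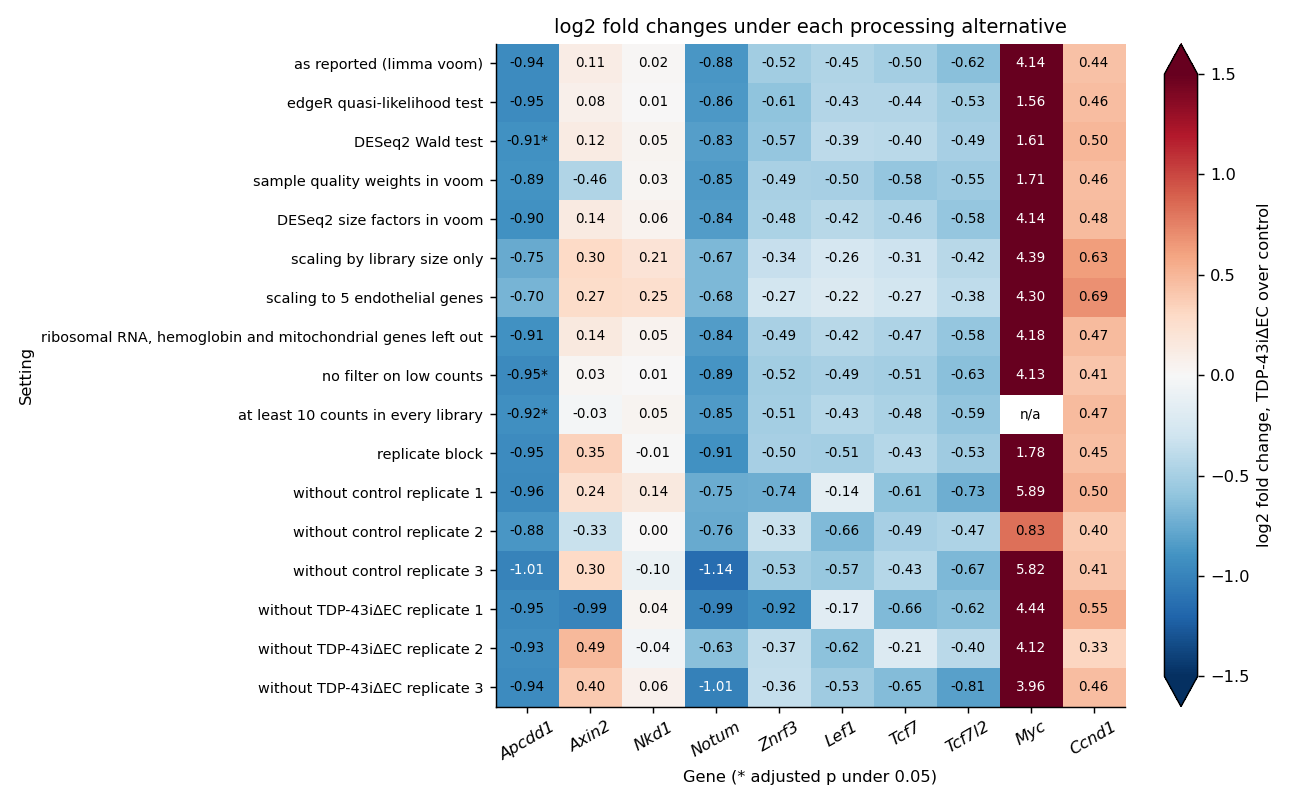
log2 fold change (color and printed value, TDP-43iΔEC over control) of each gene (columns) under each processing setting (rows), with an asterisk for an adjusted P value under 0.05. Only Apcdd1 carries asterisks, with DESeq2, with no filter on low counts and with at least 10 counts in every library, and only Axin2 and Nkd1 change sign.

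Since a gene that changes more than another must differ from it in ratio, the ratio of *Apcdd1* to each of the other 9 genes was taken within each library (log2 of normalized counts + 1) and compared between the genotypes. This ratio does not depend on the scaling of libraries, apart from the pseudocount. To *Nkd1*, it was 2.05, 2.50 and 2.44 in control mice and 1.42, 1.20 and 1.48 in *TDP-43iΔEC* mice. The groups did not overlap, and the change was -0.96 (2-sided exact permutation P = 0.1, the smallest possible, adjusted over 9 ratios 0.3). To *Ccnd1*, it was 1.75, 2.13 and 1.83 in control mice and 0.69, 0.24 and 0.57 in *TDP-43iΔEC* mice, again without overlap, with a change of -1.40 (exact permutation P = 0.1, adjusted 0.3). To *Myc*, the change was -4.84 (exact permutation P = 0.1, adjusted 0.3) and -1.79 without control mouse 2. For the other 6 genes the groups overlapped, with changes of -0.70 (*Axin2*), -0.55 (*Lef1*), -0.43 (*Tcf7*), -0.36 (*Tcf7l2*), -0.31 (*Znrf3*) and -0.06 (*Notum*) and exact permutation P values from 0.2 to 0.9. With each mouse left out, the change relative to *Nkd1* lay between -1.10 and -0.88 and that relative to *Ccnd1* between -1.497 and -1.27. Leaving out 1 mouse brought the change relative to *Znrf3* to -0.02 at the least (without *TDP-43iΔEC* mouse 1), to *Tcf7l2* to -0.06 and to *Tcf7* to -0.21 (both without *TDP-43iΔEC* mouse 3), and that relative to *Lef1* ranged from -0.88 without control mouse 1 to -0.27 without control mouse 2. Relative to *Notum* and *Axin2* no direction could be given, since leaving out single mice turned the sign. With 3 mice against 3 no ratio could pass a threshold of 0.05.

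**Figure D4:**
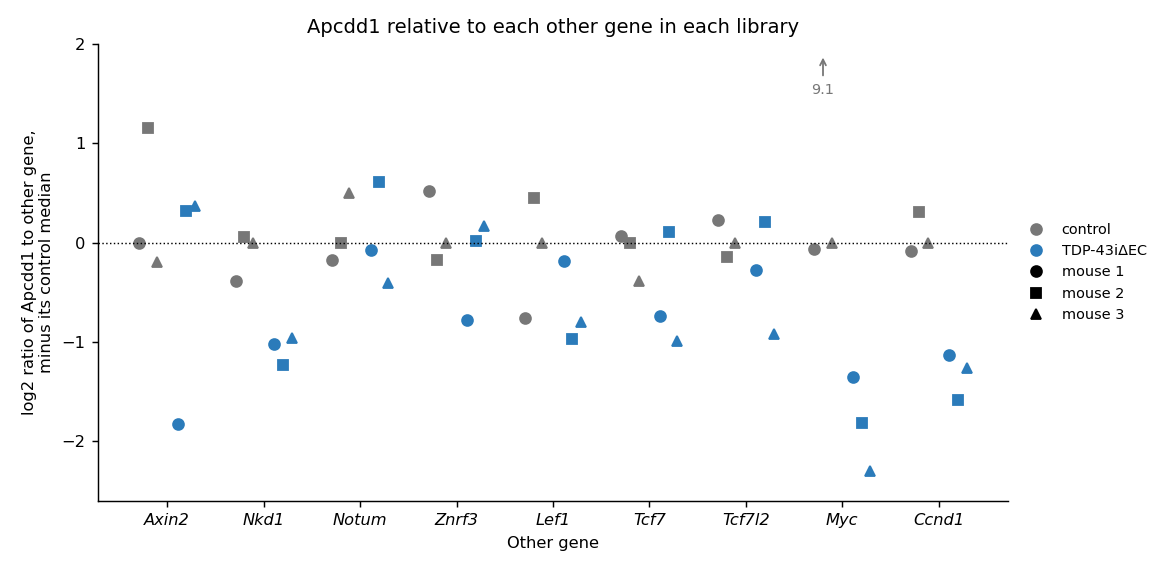
log2 ratio of Apcdd1 to each other gene in each library (y axis), minus the median of the 3 control libraries (dotted line), for control (gray) and TDP-43iΔEC mice (blue), with symbols for mice 1, 2 and 3 and an arrow for 1 control value off the axis (Myc, 9.1). The TDP-43iΔEC points lie below all control points for Nkd1, Myc and Ccnd1, and for the other 6 genes the ranges of the groups overlap.

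The levels of these genes spanned a wide range. Per kilobase of the canonical transcript, control means ran from 2603 ± 302 normalized counts per kb for *Apcdd1* through 1991 for *Ccnd1*, 1833 for *Nkd1*, 1476 for *Lef1*, 835 for *Tcf7*, 565 for *Notum*, 284 for *Tcf7l2* and 240.2 for *Znrf3* to 132 for *Myc* and 126 for *Axin2*. Of the neighbors in this order, *Nkd1* and *Lef1*, *Znrf3* and *Myc*, and *Myc* and *Axin2* kept it in only 2 of 3 control libraries, and the other pairs kept it in all 3. The order rests on the length used. Per kb of the union of all exons, *Tcf7* (755) lay above *Nkd1* (686) and *Lef1* (403), and *Znrf3* (192) above *Tcf7l2* (131). *Apcdd1* led *Ccnd1* in 3 of 3 control libraries and in 3 of all 6. In *TDP-43iΔEC* mice the level of *Apcdd1* was 1384 ± 20.0 per kb and that of *Ccnd1* 2823 ± 425. The classic reporter *Axin2* was thus among the lowest of the 10 genes in these ECs, at 194 to 1665 deposited counts per library.

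The tested genes whose profile over the 6 libraries was most like that of each gene were sought by the root mean square difference of log2 normalized counts, each centered on its own mean, among 5169 genes with a mean of at least 1000 normalized counts. The genes nearest to *Apcdd1* were *Itm2a* (0.0797), *Slc52a2* (0.0981) and *Slc39a10* (0.0989), which encode an integral membrane protein, a riboflavin transporter and a zinc transporter, against a median distance of 0.608 over all genes compared. In limma, their log2 fold changes were -0.80, -0.82 and -0.92 (adjusted P = 0.0269, 0.360 and 0.139). A profile like that of *Apcdd1* over these libraries includes its difference between the groups, so this direction followed from the choice. Nearest to *Ccnd1* were *Get4* (0.0623), *Skiv2l* (0.0859) and *Trp53* (0.0898), the gene of p53. For *Nkd1* they were *Mbnl2*, *Rtn3* and *Zhx1* (0.0813 to 0.0847), for *Notum* *C130074G19Rik*, *Pcdh19* and *Rnf144b* (0.116 to 0.162), and for *Znrf3* *Uggt1*, *Klhl5* and *Nptn* (0.112 to 0.129). For *Lef1* they were *Nomo1*, *Map1lc3a* and *Plod3* (0.103 to 0.133), for *Tcf7* *Get1*, *Hikeshi* and *Kbtbd2* (0.0956 to 0.121), and for *Tcf7l2* *Cd59a*, *Uqcc2* and *Gm5148* (0.117 to 0.134). None of these 8 genes was among the nearest 3 of another. With 6 libraries, and in 5169 genes, such likeness is a description.

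The rest of the pathway was read from 8 lists with 111 genes, of which 97 were tested. Of these, 2 passed the threshold in limma, both lower in *TDP-43iΔEC* mice. They were *Tfrc* and *Itm2a*, both in a list of 20 other genes named as Wnt targets. *Tfrc*, the transferrin receptor gene, had 110975, 86170 and 110707 normalized counts in the controls, against 44463, 48197 and 34257 in *TDP-43iΔEC* mice (log2 fold change -1.31, SE 0.17, adjusted P = 0.0269 in limma), and *Itm2a* had 191230, 223943 and 176709 and 114884, 111903 and 121896. Neither gene's groups overlapped. With 1 mouse left out, *Tfrc* passed the threshold only without control mouse 2 (limma adjusted P = 0.0175, otherwise 0.0613 to 0.193) and *Itm2a* only without control mouse 3 (0.0103, otherwise 0.0632 to 0.197). Both lost the call in edgeR, with scaling by library size only, with scaling to 5 endothelial genes and with no filter on low counts. Of the 18 genes of this list that were tested, 17 had a negative log2 fold change, against 50.7% of all tested genes, with a median of -0.66, and 9 were lower without overlap of the groups, against 7.1%. With each mouse left out, the median lay between -0.73 (without control mouse 2) and -0.45 (without *TDP-43iΔEC* mouse 1). Positive log2 fold changes, 1 in the fit reported here, numbered 3 with scaling by library size only and 4 with scaling to 5 endothelial genes. The study picked out *Tfrc*, *Spock2* and *Ttyh2* of this list, and *Apcdd1* of the 10 genes, on these samples, and *Itm2a* entered the list with earlier results of these data known. Neither the count of the list nor the lower level of *Apcdd1* is thus independent evidence of a direction.

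None of the other 7 lists held a gene past the threshold in limma. Of the ligands and receptor complex, 7 of 10 genes were tested, 6 had a negative log2 fold change and the median was -0.29. This median was -0.68 without control mouse 1, -0.48 without control mouse 3, and -0.51 without *TDP-43iΔEC* mouse 1 or 2. An unadjusted P value under 0.05 in limma was found for 3, against 9.27% of all tested genes. This count was 1 with sample quality weights, with scaling by library size only and with scaling to 5 endothelial genes. It was also 1 without control mouse 2 and without *TDP-43iΔEC* mouse 1 or 3. The genes of the ligands *Wnt7a*, *Wnt7b* and *Ndp*, which are made by neural cells, were not tested. *Adgra2*, which encodes the coreceptor GPR124 for Wnt7 ligands in brain ECs, had 2785, 2338 and 2516 normalized counts in the controls, against 1168, 1431 and 1226 in *TDP-43iΔEC* mice without overlap (log2 fold change -1.05, adjusted P = 0.338 in limma). *Tspan12*, a Norrin coreceptor gene, differed by -0.97 on the log2 scale with overlapping groups (adjusted P = 0.471 in limma). Of 13 genes of the destruction complex and Dishevelled, 8 had a positive log2 fold change, the median was 0.39 and none had an unadjusted P value under 0.05. Without *TDP-43iΔEC* mouse 1 the median was 0.14, without control mouse 2 it was 0.23 and without *TDP-43iΔEC* mouse 3 it was 0.67. This list holds *Ctnnb1*, the β-catenin gene (log2 fold change -0.14, SE 0.14, limma adjusted P = 0.764). The lowest P values of the list were those of *Gsk3b* and *Csnk1a1*, both kinases of β-catenin. *Gsk3b* had a log2 fold change of 0.96 without overlap of the groups (limma unadjusted P = 0.0669, adjusted 0.558). *Csnk1a1* had 0.57 with overlapping groups (limma unadjusted P = 0.0597, adjusted 0.549). Among 13 TCF/LEF partners and corepressors, the median was -0.47, or 0.09 without *TDP-43iΔEC* mouse 1, and 1 gene had an unadjusted P value under 0.05, *Ctbp2* (-1.22, limma adjusted P = 0.489). *Ctnnbip1*, which encodes a protein that keeps β-catenin from TCF factors, followed at -0.70. Of 13 secreted and membrane antagonists outside the 10 genes, 5 were tested. *Nkd2* was at -4.23 (SE 1.75, limma adjusted P = 0.516), with 544, 271 and 553 normalized counts in the controls, against 2.27, 265 and 25.5 in *TDP-43iΔEC* mice. *Kremen1* was at 1.56 with overlapping groups (SE 0.97, limma adjusted P = 0.616). The median of -0.90 had the opposite sign in DESeq2 (0.19), edgeR (0.13) and with at least 10 counts in every library (0.34, from 2 tested genes). It was -2.80 without control mouse 2, -3.10 without *TDP-43iΔEC* mouse 2 and -1.47 without *TDP-43iΔEC* mouse 3, with 6 genes tested in each, so this list has no settled value.

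The lists around the 2 growth targets had medians above 0. Those of cyclin D and of MYC mix genes that promote and genes that restrain growth, so their counts give no direction of growth. Of 11 cyclin D and cyclin-dependent kinase genes, which include restraints of the cell cycle such as *Cdkn1a* and *Rb1*, 8 had a positive log2 fold change. Their median was 0.38, and 1 had an unadjusted P value under 0.05 in limma, against 9.27% of all tested genes. Without control mouse 2 the median was 0.19 with 6 of 11 positive, and it was 0.64 without control mouse 1 and 0.58 without *TDP-43iΔEC* mouse 3. *Ccnd2*, the gene of cyclin D2, had 4944, 3829 and 3569 normalized counts in the controls, against 5721, 6022 and 6899.6 in *TDP-43iΔEC* mice without overlap (log2 fold change 0.55, adjusted P = 0.498 in limma). *Cdk6*, a kinase partner of D cyclins, differed by 1.09 on the log2 scale (adjusted P = 0.544 in limma), also without overlap. Of 16 MYC partners and ribosome biogenesis targets, 10 had a positive log2 fold change and the median was 0.27. An unadjusted P value under 0.05 in limma was found for 3, against 9.27% of all tested genes. *Mxd1*, which encodes a MYC antagonist, was among these 3. The median was 0.48 without control mouse 3 and 0.41 and 0.47 without *TDP-43iΔEC* mice 1 and 2. *Odc1*, a known MYC target that encodes the first enzyme of polyamine synthesis, had 1486, 2645 and 3453 normalized counts in the controls, against 5872, 6485 and 4873 in *TDP-43iΔEC* mice (log2 fold change 1.23, adjusted P = 0.291 in limma). The nucleolar gene *Npm1* differed by 0.44 on the log2 scale (adjusted P = 0.468 in limma). Of 15 proliferation genes 14 were tested, 12 had a positive log2 fold change and 7 were higher without overlap of the groups, against 7.93% of all tested genes. The count of 12 became 8 without control mouse 2 and 9 without *TDP-43iΔEC* mouse 2 or 3. Their median of 1.74 was 0.52 without control mouse 2, 3.83 without *TDP-43iΔEC* mouse 1 and 0.32 with at least 10 counts in every library (6 genes tested). Scaling to 5 endothelial genes placed the median of the ligand and receptor list at -0.15, of the destruction complex at 0.65, of the TCF/LEF partners at -0.19, of the other Wnt targets at -0.42, of the cyclin D genes at 0.60 and of the MYC partners at 0.54. With this scaling the median of all tested genes was 0.23, so these values are shifted upward with it.

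**Figure D5:**
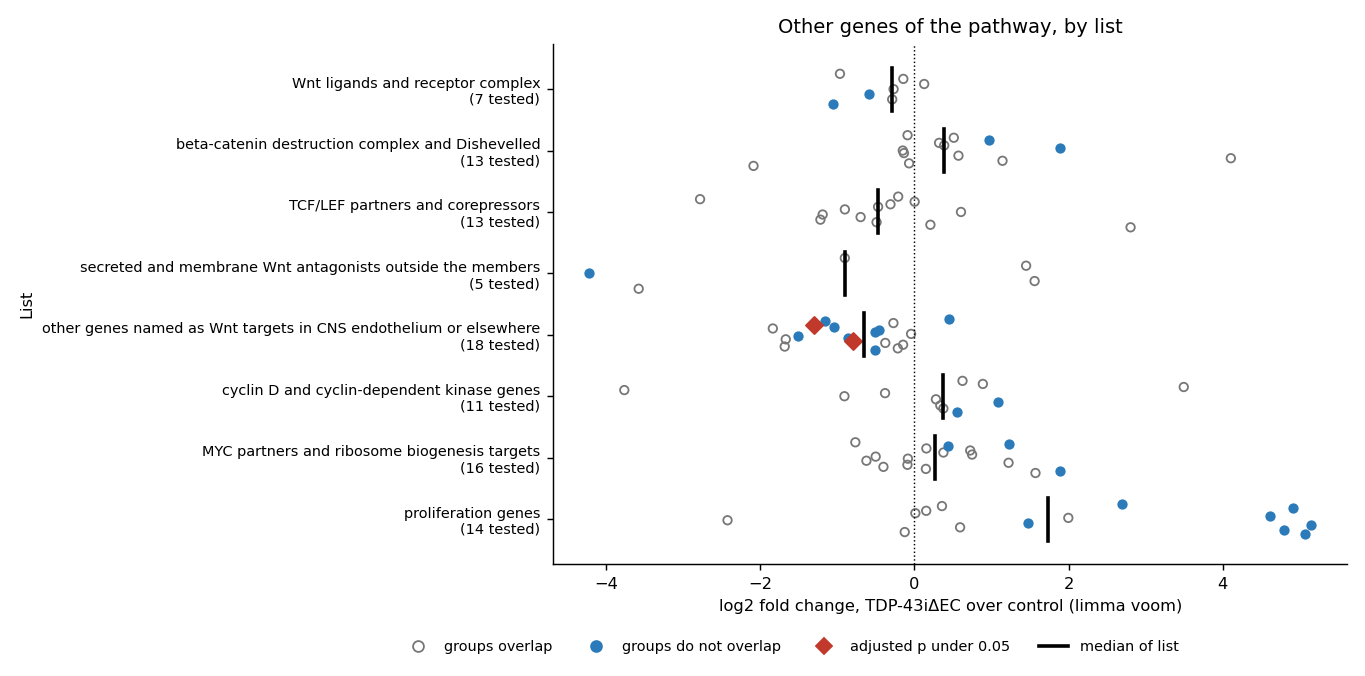
log2 fold change (x axis, TDP-43iΔEC over control, limma voom) of each tested gene of 8 further lists, with open circles for overlapping groups, filled circles for groups without overlap, red diamonds for an adjusted P value under 0.05 and a bar for the median of the list. The 2 diamonds, Tfrc and Itm2a, are both in the list of other Wnt targets, whose median is -0.66, and the medians of the cyclin D, MYC partner and proliferation lists lie above 0.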

How the data were processed

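The data are gene-level counts from 6 SMARTseq2 RNA-Seq libraries of spinal cord ECs, and all 6 were used. The authors mapped paired reads with STAR 2.7.8a (genome GRCm39, annotation GENCODE M30) and deposited estimated counts per gene from RSEM 1.3.0, which hold whole numbers and were neither scaled nor filtered. RSEM's default options do not use strand, and PCR copies were not removed by molecular identifiers, so that intervals from counts would cover counting error only. Groups came from the labels of the samples.

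Differences between *TDP-43iΔEC* and control mice were tested in R 4.3.3 with limma 3.58.1 (voom, empirical Bayes), after TMM scaling and filterByExpr of edgeR 4.0.16, with Benjamini-Hochberg adjustment over all 13107 tested genes and a threshold of 0.05. Normalized counts are counts divided by DESeq2 1.42.0 size factors. Ratios used a pseudocount of 1 and 2-sided exact permutation tests. Alternatives replaced 1 choice at a time (edgeR, DESeq2, sample quality weights, 3 other scalings, ribosomal RNA, hemoglobin and mitochondrial genes left out, 2 other filters, the replicate number as a block, each mouse left out, an adjusted P value under 0.1 and, for ratios, a pseudocount of 10). Gene positions, transcript lengths, overlaps and promoters came from GENCODE M39 on GRCm39, which matched 98.7% of identifiers. The procedures were tested on simulated counts.

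Named genes are the 10 genes, *Tardbp*, *Ctnnb1*, list genes past the threshold or otherwise the 2 of lowest P value in each list, the 3 nearest profiles of each gene with a mean of at least 1000 normalized counts, and for cell type markers the highest of each list. Genes named outside this rule, such as *Mog* and *Mag*, were chosen after their values were seen. A few list members are not reported here. The 10 genes and all lists were chosen with earlier results of these data known.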

Additional observations from a re-analysis of the deposited data

How the results depend on the processing

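Of the 10 genes, 0 passed the threshold as reported, and 1 (*Apcdd1*) passed with DESeq2, with no filter on low counts, with at least 10 counts in every library and at an adjusted P value under 0.1. With each mouse left out the count ranged from 0 to 0, where 1 or 2 of the 10 had an unadjusted P value under 0.05 in limma. Over all genes, the 18 calls became 0 with edgeR (848 with an unadjusted P value under 0.05), 247 with DESeq2, 10 with scaling by library size only, 1 with scaling to 5 endothelial genes, 76 with no filter, 39 with at least 10 counts, 31 at an adjusted P value under 0.1, and 0 to 13 with each mouse left out, with 0 without *TDP-43iΔEC* mouse 1 (960 unadjusted in limma). The 2 calls in the pathway lists became 0 with edgeR, 6 with DESeq2, 0 with either of those scalings, 4 with at least 10 counts, 4 at an adjusted P value under 0.1 and 0 to 1 with each mouse left out. *Tardbp* passed only with DESeq2 (log2 fold change -1.65, adjusted P = 0.0221).

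The log2 fold change of *Axin2* was -0.46 with sample quality weights, -0.034 with at least 10 counts in every library, and -0.33 and -0.99 without control mouse 2 and *TDP-43iΔEC* mouse 1 (range with each mouse left out -0.99 to 0.49). That of *Nkd1* was -0.0078 with the replicate block and -0.10 and -0.04 without control mouse 3 and *TDP-43iΔEC* mouse 2 (-0.10 to 0.14). The ratio of *Apcdd1* to *Axin2* changed by 0.025 without *TDP-43iΔEC* mouse 1 (range with each mouse left out -1.07 to 0.025), and that to *Notum* by 0.13 and 0.16 without control mouse 3 and *TDP-43iΔEC* mouse 3 (-0.35 to 0.16). *Myc* could not be tested with at least 10 counts in every library.

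The labels number the mice within each group but tie no numbers together. Same-numbered mice did not deviate together (correlations of -0.061, -0.111 and -0.021), so the numbers were not taken as pairs. With the replicate block, 22 genes passed the threshold, none of the 10 genes did, and *Apcdd1* differed by -0.95 on the log2 scale (adjusted P = 0.0645 in limma). Control mouse 2 and *TDP-43iΔEC* mouse 1, and 3 mice per group, limit what these counts can show for the low genes *Axin2* and *Myc*.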

Other observations

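Of the proliferation genes, *Cdk1*, *Mki67* and *Birc5*, chosen here after their values were seen, were at 0 in control mouse 2, as *Myc* was, and were higher in every *TDP-43iΔEC* mouse than in every control. *Cdk1*, the kinase of entry into mitosis, had 1066, 0 and 675 normalized counts in the controls, against 2440, 2230 and 3551 in *TDP-43iΔEC* mice. *Mki67*, a marker of cycling cells, had 310.3, 0 and 388 normalized counts in the controls, against 851, 2547 and 894 in *TDP-43iΔEC* mice. *Birc5*, the gene of survivin, had 95.7, 0 and 384 in the controls, against 498, 1418 and 1438 in *TDP-43iΔEC* mice. The adjusted P values of these 3 genes in limma were 0.513, 0.553 and 0.546. *Mcm2*, a replication helicase subunit, had 597, 129.96 and 481 normalized counts in the controls, against 849, 1417 and 792 in *TDP-43iΔEC* mice (limma adjusted P = 0.541). *Pcna*, the sliding clamp of replication, had 2065, 2004 and 3028 in the controls, against 2831, 2345 and 4694 in *TDP-43iΔEC* mice, with overlapping groups (limma adjusted P = 0.733). Not all of the list moved this way. *Mcm3* and *Ccna2* had negative log2 fold changes (-2.43 and -0.13) with overlapping groups. *Mcm3* had 351, 45.4 and 650 normalized counts in the controls, against 0, 1971 and 938 in *TDP-43iΔEC* mice. *Ccna2* had 334, 123 and 321, against 97.8, 1327 and 179.

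The antisense transcripts at these genes also varied. *A630014C17Rik*, on the strand opposite *Tcf7*, had 15, 276 and 94 counts in the controls, against 1, 0 and 0 in *TDP-43iΔEC* mice, and overlaps 5.47% of the exonic sequence of *Tcf7*. Because the counting did not use strand, reads of the overlap cannot be told apart from those of *Tcf7*.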
